A study of Micropterus salmoides with 6 samples.

Results

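The genes described here encode enzymes that make phosphatidylcholine, phosphatidylethanolamine and phosphatidylserine, the main membrane phospholipids of animal cells. In the CDP-choline and CDP-ethanolamine routes, together called the Kennedy pathway, a kinase phosphorylates choline or ethanolamine, a cytidylyl transferase activates the product with CTP, and a transferase joins it to diacylglycerol. Phosphatidylserine is made by exchange of the head group of an existing phospholipid, and a mitochondrial decarboxylase converts it back to phosphatidylethanolamine. The roles given below are those known from mammals. The members were chosen by name, with earlier results of these data known. Of 10 gene symbols listed, 9 were found among the 27166 genes of the count table, and all 9 had enough reads to be among the 20627 genes tested. The remaining one, pcyt2, the cytidylyl transferase of the ethanolamine route, was not analysed here.

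Expression was measured by RNA sequencing of whole bodies of largemouth bass (Micropterus salmoides) larvae after 12 days of feeding. SP_L larvae received feed with 0% added phospholipid and were picked for visible deformity of the skeleton. SP_H larvae received feed with 8% phospholipid and were picked as normal. Each group had 3 libraries, each from 30 pooled larvae of a tank, so every library is an average over animals and tissues. Since diet and deformity split the libraries in the same way, their parts in any difference cannot be told apart, and in whole-body RNA fewer cells of a type and less RNA per cell cannot be told apart either.

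Library totals lay between 14958887 and 16922264 counts. Summed levels of marker genes for several tissues differed between the groups. The 14 skeletal muscle fibre genes found in the table, of 26 listed, summed to between 53004 and 61033 CPM (read counts scaled to library size by TMM) in SP_L, against 41416 to 48984 CPM in SP_H. Without their most abundant gene, mylpfb, the sums stayed apart (30328 to 35076 CPM in SP_L, 23807 to 28258 CPM in SP_H). Of these 14 genes 12 had positive and 2 negative log2 fold changes, and 7 overlapped between the groups. The 10 bone matrix genes found, of 15 listed, summed to between 9508 and 10577 CPM in SP_L, against 13066 to 13924 CPM in SP_H. Most of this sum came from the type I collagen genes col1a1a, col1a1b and col1a2. Without col1a1a alone the sums stayed apart (6476 to 7189 CPM in SP_L, 8850 to 9407 CPM in SP_H). All 10 had negative log2 fold changes, and 3 of them, sp7, runx2b and phex, overlapped between the groups. The SP_L sums were also below those of SP_H for the 9 of 17 cartilage genes, 16 of 23 photoreceptor genes, 8 of 13 erythroid genes and 12 of 16 proliferation genes found. The cartilage sums were close, at most 359.5 CPM in SP_L and at least 363.6 CPM in SP_H. Among genes tested, 2 of 8 cartilage, 5 of 15 photoreceptor and 7 of 12 proliferation genes did not overlap, all with SP_L lower. For liver, gut and neuron genes the sums overlapped between the groups. SP_H replicate 3 had 2306 CPM for liver genes, against 3689 to 4092 CPM in SP_L and 4101 and 3715 CPM in SP_H replicates 1 and 2. For gut genes it had 30.0 CPM, against 62.9 to 87.2 CPM in SP_L and 76.3 and 67.1 CPM in SP_H replicates 1 and 2. All 11 liver and all 7 gut genes tested had positive log2 fold changes, 1 of each without overlap. Most of the erythroid sum came from the globin gene hbae5, with 2122 to 2813 CPM in SP_L, against 3794 to 4627 CPM in SP_H. Without hbae5 the erythroid sums overlapped (541 to 559 CPM in SP_L, 542 to 604 CPM in SP_H). Of the 8 erythroid genes, 7 had negative log2 fold changes, 5 of them without overlap, hbae5 included. The exception, sptb, was above SP_H in every SP_L library (log2 fold change 0.48 ± 0.09). The cartilage sums also overlapped without their most abundant gene, col11a2. By contrast, the neuron sums separated without theirs, snap25a: 886 to 953 CPM in SP_L, against 1003 to 1181 CPM in SP_H. Of the 14 neuron genes found, 13 had negative log2 fold changes, 5 of them without overlap. Beside these marker counts, 19.1% of the 20627 tested genes had no overlap, 1988 with SP_L higher and 1952 with SP_L lower. No marker found in the table was at 0 in all libraries. The part of tissue make-up in the values of the phospholipid genes was not tested.

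The comparison asked whether the pathway is expressed at other levels in deformed SP_L larvae than in normal SP_H larvae. Mean levels in SP_L were between 85.0% (chkb) and 124.5% (chpt1) of those in SP_H. Of the 9 members, 0 passed the quasi-likelihood F test of edgeR at 0.05 after Benjamini-Hochberg adjustment over all tested genes, a test that called 0.0679% of these. The edgeR adjusted p-values of the members ranged from 0.374 (chpt1) to 0.941 (etnk1). DESeq2, which called 2.22% of genes, and limma-voom, which called 0.0873%, also called 0 members. At an unadjusted p under 0.05 edgeR counted 1 member (chpt1), against 12.7% of all genes. DESeq2 counted 1 (10.2% of all genes) and limma-voom 0 (12.8%).

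Under TMM scaling, the depth and the agreement of the libraries set bounds on what could have been missed. The members had between 77 and 10885 counts per library. For each of the 9 members the 95% interval of the fold change lay inside a fold of 2 in either direction, and for 8, chpt1 being the exception, it lay inside 1.5. The outermost bounds were a log2 fold change of -0.56 for chkb and of 0.62 for chpt1. The median log2 fold change of the members was 0.04, with 6 positive and 3 negative, beside a median of 0.00 over all tested genes, of which 50.5% were positive. With libraries scaled by their totals alone the median of all genes shifted to -0.13, and chka, etnk1, selenoi and pisd took negative signs but stayed above that median. chkb moved to -0.37, or -0.24 relative to that median. The intervals given here do not cover such a change of scaling.

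**Figure D1:**
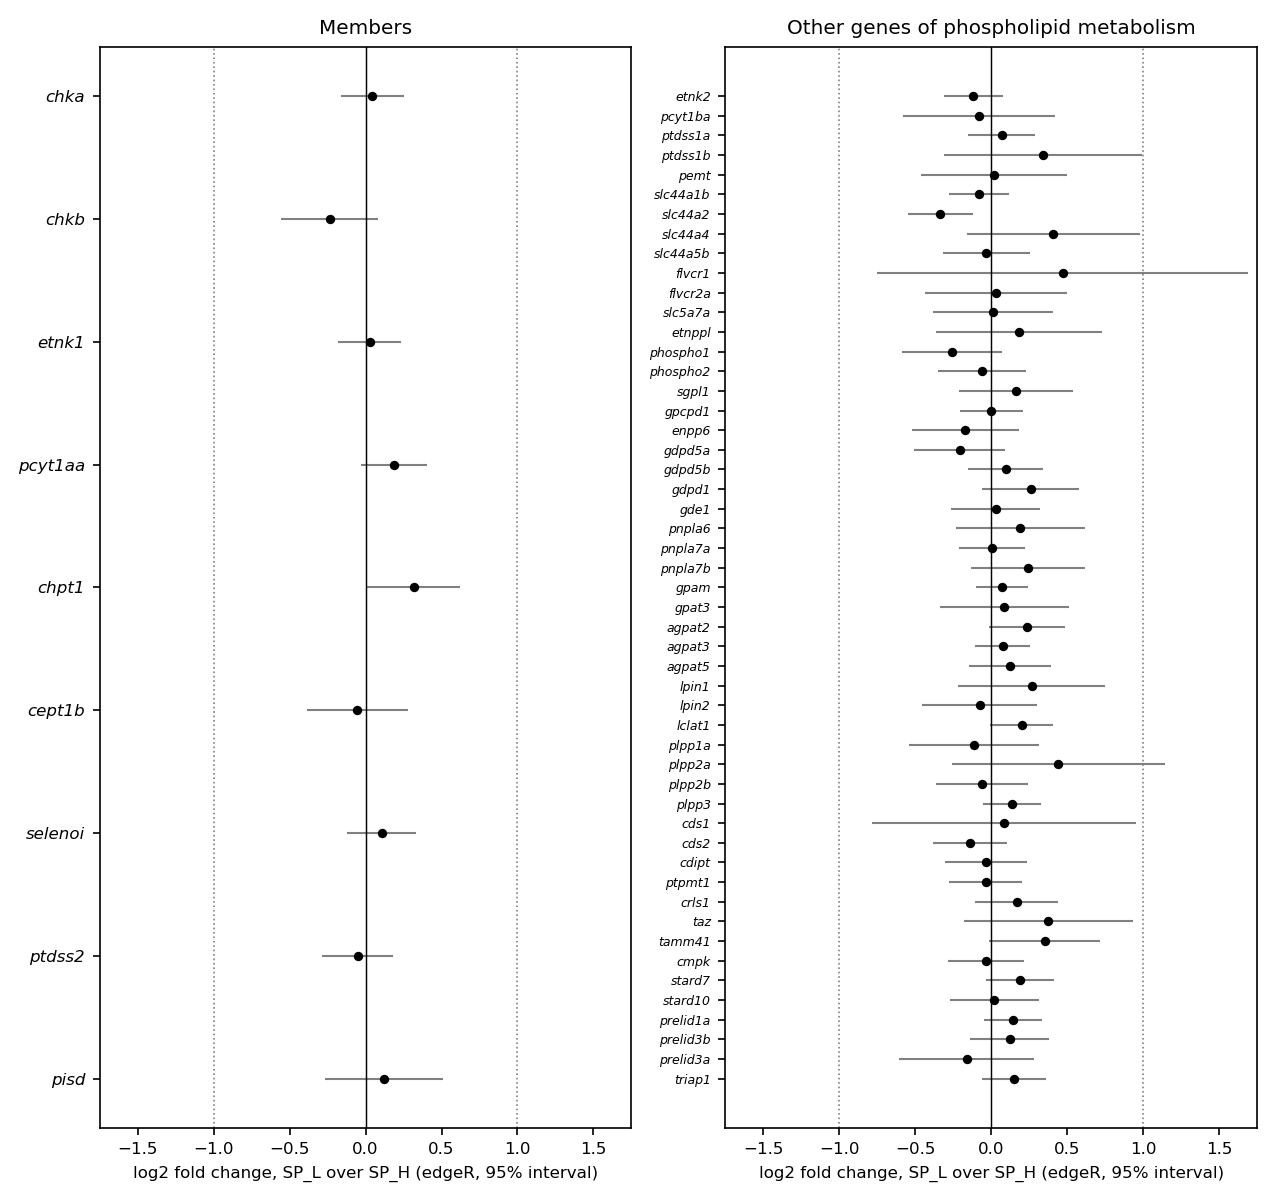
Log2 fold change of SP_L over SP_H (horizontal axis) with its 95% interval from the edgeR fit, for the 9 members on the left and 51 other genes of phospholipid metabolism on the right, 1 row per gene. Dotted lines mark a fold of 2 in either direction; all 9 member intervals lie between them, and on the right those of flvcr1 and plpp2a cross the upper line.

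Levels were compared between genes as deposited FPKM, in which counts are divided by gene length and library total. The ethanolamine kinase gene etnk1 was by far the most abundant member. It had 145.2, 166.6 and 162.3 FPKM in the SP_L libraries, against 175.4, 152.8 and 181.5 FPKM in the SP_H libraries. This placed it above 98.1% of all tested genes and made up between 67.1% and 71.1% of the summed FPKM of the members in SP_L, against 68.4% to 71.5% in SP_H. The next member, pcyt1aa, had a mean of 22.3 FPKM in SP_L and 21.4 FPKM in SP_H, so etnk1 exceeded it 7.10 times in SP_L and 7.96 times in SP_H. Below these came chpt1 (13.9 FPKM in SP_L, 12.2 FPKM in SP_H), chka (9.19 FPKM in SP_L, 9.75 FPKM in SP_H) and selenoi (7.97 FPKM in SP_L, 8.10 FPKM in SP_H). The lowest were ptdss2 (5.90 FPKM in SP_L, 6.69 FPKM in SP_H), chkb (5.15 FPKM in SP_L, 6.65 FPKM in SP_H), cept1b (3.73 FPKM in SP_L, 4.23 FPKM in SP_H) and pisd (2.23 FPKM in SP_L, 2.25 FPKM in SP_H). The order of the means was the same in both groups. Of the 8 neighbouring pairs in this order, 7 were separated in every library of each group, and ptdss2 and chkb overlapped in both.

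**Figure D2:**
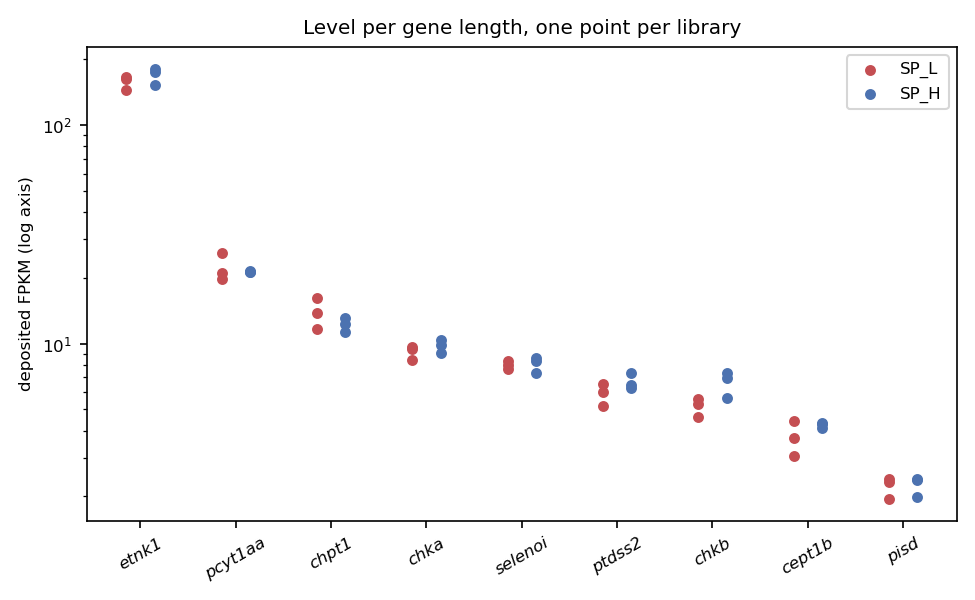
Deposited FPKM (vertical log axis) of each member in each of the 6 libraries, SP_L left and SP_H right within each gene, ordered by the SP_L mean. etnk1 stands above 145 FPKM in all libraries, and pisd is lowest with group means of 2.23 FPKM in SP_L and 2.25 FPKM in SP_H.

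The kinase genes of the first step among the members did not differ beyond the spread between pools. chka, which encodes choline kinase alpha, had 55.2, 62.0 and 60.5 CPM in SP_L, against 61.2, 58.8 and 52.5 CPM in SP_H. The 2 groups covered nearly the same range, and the log2 fold change was 0.04 ± 0.09 (SE; edgeR adjusted p = 0.893). chkb, the gene of choline kinase beta, had 17.7, 16.6 and 13.9 CPM in SP_L, against 15.9, 20.1 and 20.6 CPM in SP_H. Here SP_L replicate 3 was lowest and SP_H replicates 2 and 3 were highest, with the other libraries between. The log2 fold change of chkb was -0.24 ± 0.14, the most negative among the members (edgeR adjusted p = 0.541), and it kept its sign in each of 16 alternative fits, between -0.37 (library totals alone as the scaling) and -0.14 (without SP_L replicate 3). etnk1 had 597.6, 682.7 and 635.7 CPM in SP_L, against 645.3, 574.3 and 661.8 CPM in SP_H, and a log2 fold change of 0.03 ± 0.09 (SE) whose edgeR adjusted p was 0.941. The groups overlapped in all 3 of these kinase genes.

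The cytidylyl transferase gene pcyt1aa encodes the enzyme regarded as rate-limiting for phosphatidylcholine synthesis. It had 80.3, 75.2 and 93.9 CPM in SP_L, against 72.4, 74.2 and 72.5 CPM in SP_H. All SP_L libraries lay above all SP_H libraries, by a margin of about 1 CPM, and SP_L replicate 3 stood well above the rest. pcyt1aa was the 1 member of 9 without overlap. Over all tested genes 19.1% had no overlap, 9.64% with SP_L higher. The log2 fold change was 0.19 ± 0.10, with a 95% interval of -0.03 to 0.41 (edgeR adjusted p = 0.466), and it was 0.09 without SP_L replicate 3. Leaving out SP_L replicate 2 gave 0.25. With library totals alone as the scaling it was 0.06, or 0.19 relative to all genes. As FPKM, which divides by the library total, the groups did overlap, with 21.1, 19.8 and 25.9 FPKM in SP_L and 21.3, 21.3 and 21.5 FPKM in SP_H. The SP_H values were the most even of any member, with a coefficient of variation of 1.43% in CPM, against 11.6% in SP_L.

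The transferases complete the lipids: chpt1 encodes choline phosphotransferase, cept1b an enzyme that accepts both CDP-choline and CDP-ethanolamine, and selenoi the selenoprotein ethanolamine phosphotransferase. chpt1 had 51.3, 43.3 and 34.9 CPM in SP_L, against 36.9, 32.6 and 34.5 CPM in SP_H. SP_L replicates 1 and 2 were above every SP_H library, whereas SP_L replicate 3 was within the SP_H range. Its log2 fold change of 0.32 ± 0.14 was the largest among the members, with a 95% interval of 0.01 to 0.62 (edgeR unadjusted p = 0.0446, adjusted p = 0.374). It depended on single libraries: it was 0.17 without SP_L replicate 1 (edgeR adjusted p = 0.689) and 0.44 without SP_L replicate 3 (edgeR adjusted p = 0.209). With libraries scaled by their totals alone it was 0.18, or 0.31 relative to all genes.

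cept1b had 17.5, 12.0 and 13.9 CPM in SP_L, against 15.2, 15.5 and 14.3 CPM in SP_H. The SP_L libraries lay on both sides of the closely grouped SP_H libraries. Its log2 fold change was -0.05 ± 0.15 (edgeR adjusted p = 0.921) and turned to 0.06 without SP_L replicate 2. selenoi had 38.1, 36.6 and 33.4 CPM in SP_L, against 30.2, 36.1 and 33.9 CPM in SP_H, and a log2 fold change of 0.11 ± 0.10 (SE) whose edgeR adjusted p was 0.713. SP_L replicates 1 and 2 were above the SP_H range here as well, by a small margin for replicate 2.

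**Figure D3:**
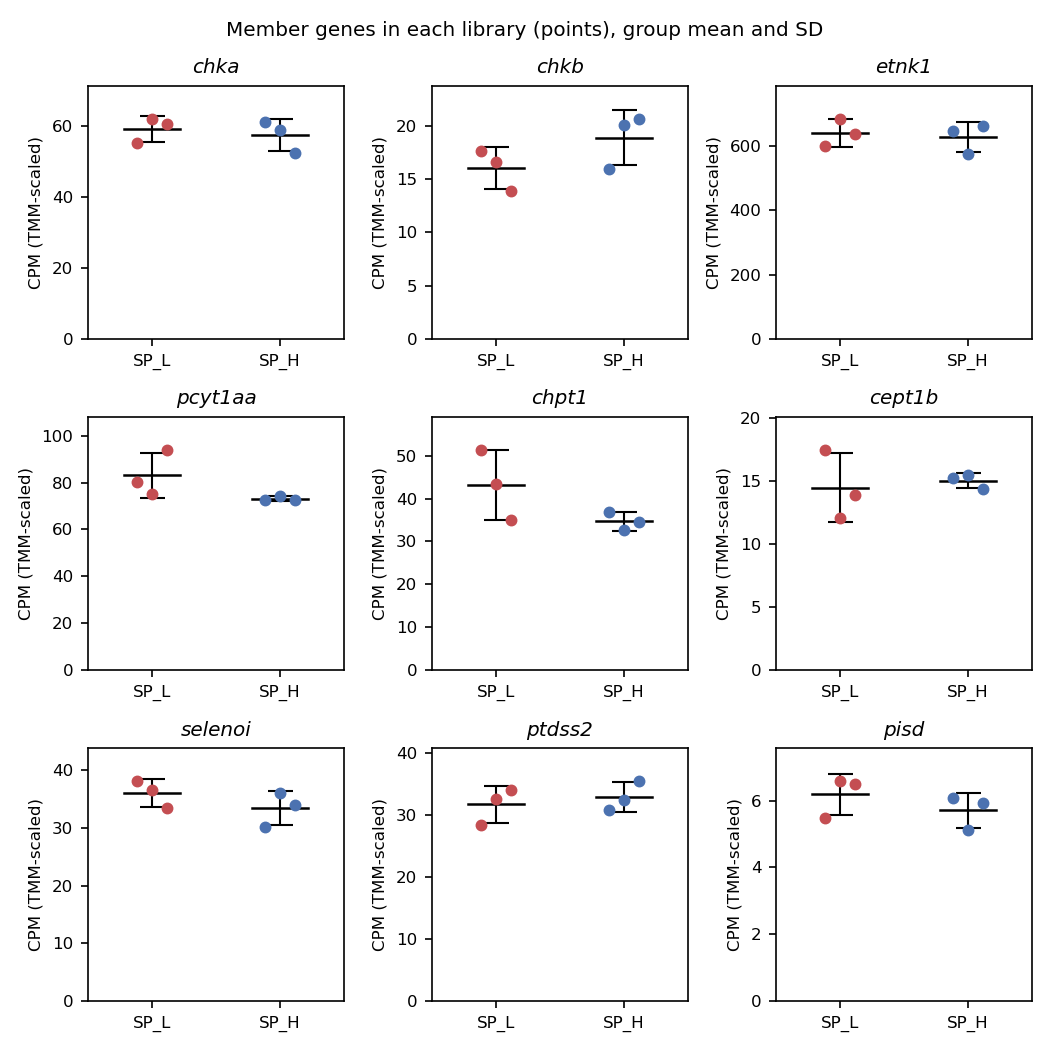
TMM-scaled CPM (vertical axes, from 0) of the 9 members in each library (points), with SP_L on the left and SP_H on the right of each panel; horizontal bars are group means and whiskers the SD of 3 libraries. The groups overlap in 8 panels and are separated in that of pcyt1aa.

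Neither gene of phosphatidylserine metabolism passed the test. ptdss2, the gene of phosphatidylserine synthase 2, which exchanges the head group of phosphatidylethanolamine for serine, had 28.4, 32.7 and 34.1 CPM in SP_L, against 30.8, 32.4 and 35.5 CPM in SP_H. pisd, the gene of phosphatidylserine decarboxylase, had 5.49, 6.59 and 6.5 CPM in SP_L, against 6.07, 5.12 and 5.93 CPM in SP_H. Both sets of values overlapped between the groups. The log2 fold changes were -0.05 ± 0.10 for ptdss2 (edgeR adjusted p = 0.885) and 0.12 ± 0.17 for pisd (edgeR adjusted p = 0.827). pisd had the fewest reads of the members.

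The spread of the members from pool to pool was low to middling among all tested genes. The coefficient of variation of their CPM had a median of 9.88% (range 6.09 to 19.0%) in SP_L and of 7.41% (range 1.43 to 13.7%) in SP_H, and it was larger in SP_L for 5 of the 9. The widest spreads in SP_L were those of chpt1 and cept1b, both 19.0%, against 6.25% and 3.96% in SP_H. In the edgeR fit the biological coefficient of variation was below the median of all tested genes (13.5%) for 8 members, from 9.23% for chka to 13.2% for cept1b, and it was 14.6% for pisd. Several members were near that median: chpt1, chkb, cept1b and pisd exceeded 43.2%, 45.3%, 48.1% and 55.9% of all tested genes.

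Ratios between members within a library do not depend on how libraries are scaled. In all, 10 ratios were compared, chosen after the values had been seen. Some of them paired a member with a gene outside the members (etnk2, pcyt1ba or ptdss1a). Of the 10 ratios, 1 separated the groups. The FPKM of chpt1 was 3.67, 4.49 and 3.13 times that of cept1b in SP_L, against 3.03, 2.63 and 3.01 times in SP_H. Each SP_L library was above each SP_H library, SP_L replicate 3 by the smallest margin. The mean ratio was 3.76 ± 0.685 in SP_L and 2.89 ± 0.224 in SP_H (SD, n = 3 each; two-sided exact permutation p = 0.10, the smallest that 3 libraries against 3 allow; 0.50 after Benjamini-Hochberg adjustment over the 10 ratios). The chka to chkb ratio was 1.80 ± 0.300 in SP_L and 1.5 ± 0.322 in SP_H, and the ptdss2 to pisd ratio was 2.65 ± 0.0763 in SP_L and 2.995 ± 0.338 in SP_H, both with overlap. The ratio of etnk1 to chka, kinases of the ethanolamine and choline routes, was 17.2 ± 0.405 in SP_L and 17.5 ± 2.35 in SP_H.

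**Figure D4:**
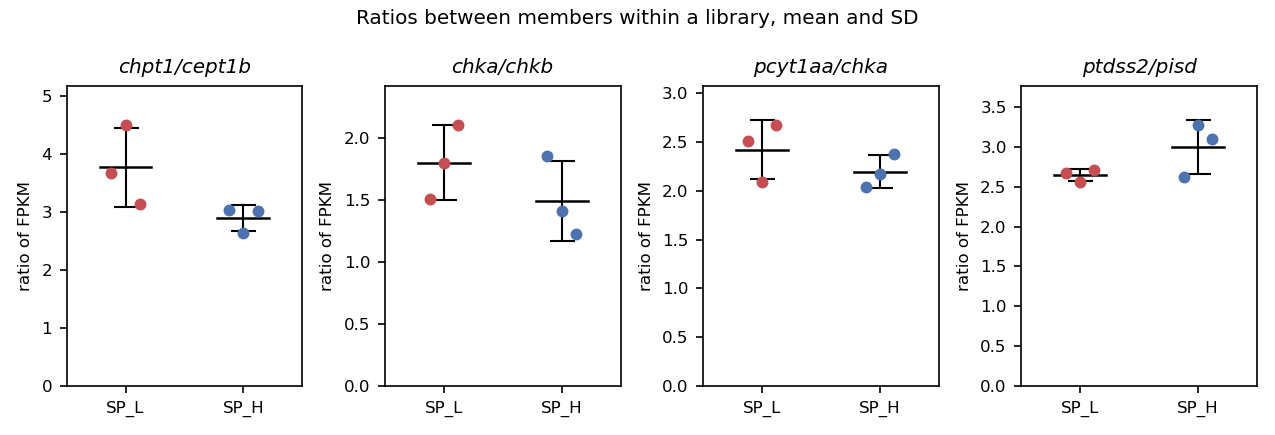
Ratio of deposited FPKM between pairs of members (vertical axes, from 0) in each library, SP_L left and SP_H right, with group mean and SD of 3 libraries. The chpt1 to cept1b ratio is at least 3.13 in SP_L and at most 3.03 in SP_H; the other 3 ratios overlap.

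The genes whose levels followed those of chpt1, the member with the lowest p, most closely across the 6 libraries were rexo4, hspa8b and tamm41. Likeness was measured as the root mean square distance between log2 CPM values centred on each gene's mean, over 12937 candidates with a descriptive symbol. The distances were 0.04 for rexo4, 0.05 for hspa8b and 0.06 for tamm41, against a median of 0.28 over the candidates. These genes were picked for their likeness to chpt1, so a shared pattern is no separate result. As in chpt1, tamm41 was highest in SP_L replicate 1 (14.97 CPM), followed by SP_L replicate 2 (13.2 CPM), and its other 4 libraries had between 9.00 and 11.5 CPM.

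The other genes of phospholipid metabolism also gave 0 edgeR calls among 51 tested, of 91 symbols listed and 52 found. The listed symbols include alternative spellings of a gene, so 52 of 91 is not the share of pathway genes present. Of the 27166 gene IDs, 13325 are LOC numbers without a descriptive symbol, and pathway genes among them were not looked for. The same holds for the marker lists. The smallest edgeR adjusted p was 0.185, 1 gene (slc44a2) had an unadjusted p under 0.05, against 12.7% of all genes, and DESeq2 and limma-voom called 0 as well, with the same gene alone under an unadjusted 0.05. The 95% interval of 49 of the 51 lay inside a fold of 2. Of the log2 fold changes 34 were positive and 17 negative, with a median of 0.07, beside 50.5% positive and a median of 0.00 over all tested genes. Between the groups 6 of the 51 did not overlap, 4 of them with SP_L higher, against 19.1% and 9.64% of all tested genes.

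Among choline and ethanolamine transporters (7 tested, 0 called), slc44a2, a member of the choline transporter-like family, had 27.3, 24.5 and 29.4 CPM in SP_L, against 34.6, 34.0 and 33.7 CPM in SP_H. The SP_L libraries were all lower and more widely spread. The log2 fold change was -0.33 ± 0.10, with a 95% interval of -0.55 to -0.12 (edgeR unadjusted p = 0.00665, adjusted p = 0.185). It was negative in each of the 16 alternative fits, between -0.46 and -0.27, and the smallest adjusted p among them was 0.0932, from edgeR with library totals alone as the scaling.

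In the list of other Kennedy pathway and base exchange enzymes (5 tested, 0 called), the lowest p was that of the second ethanolamine kinase gene, etnk2. It had 41.8, 40.6 and 39.6 CPM in SP_L, against 42.2, 47.1 and 42.9 CPM in SP_H, without overlap but with SP_L replicate 1 just below SP_H replicate 1. The log2 fold change of etnk2 was -0.12 ± 0.09, and its edgeR adjusted p was 0.620. Per gene length etnk1 was 26.1 ± 2.15 times as abundant as etnk2 in SP_L and 23.8 ± 3.04 times in SP_H (SD, n = 3 each). The methyltransferase gene pemt, whose enzyme turns phosphatidylethanolamine into phosphatidylcholine, had a log2 fold change of 0.02 ± 0.21 and means of 2.56 FPKM in SP_L and 2.76 FPKM in SP_H.

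In the remaining lists the gene with the lowest p also failed the test. In the CDP-diacylglycerol branch (7 tested, 0 called) it was tamm41, the gene of a mitochondrial enzyme that makes CDP-diacylglycerol for cardiolipin, with a value of 0.35 ± 0.16 on the log2 fold scale (edgeR adjusted p = 0.406). For the supply of phosphatidate and diacylglycerol (12 tested, 0 called) it was lclat1, which encodes an acyltransferase of lysophospholipids including lysocardiolipin, at 0.20 ± 0.09 (edgeR adjusted p = 0.413). Among 13 genes of the turnover of head groups, with 0 called, it was the phosphodiesterase gene gdpd1 at 0.26 ± 0.14 (edgeR adjusted p = 0.491). Among 6 phospholipid transfer genes, with 0 called, it was stard7, whose protein carries phosphatidylcholine to mitochondria, at 0.19 ± 0.10 (edgeR adjusted p = 0.479). The single gene of CTP supply found under a listed symbol, the nucleotide kinase gene cmpk, had a value of -0.04 ± 0.11 (edgeR adjusted p = 0.933).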

How the data were processed

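Whole-larva RNA was made into stranded mRNA libraries and sequenced as paired ends, per the labels' protocols. The submitters' processing notes name HTSeq, DESeq, Cufflinks, StringTie, HISAT2, Bowtie2, SAMtools and Trimmomatic, with neither a role nor a version. The notes name the mouse build mm10, although 27161 of the 27166 gene IDs, all 9 members included, match RefSeq symbols of largemouth bass, so coordinates were not used. As deposited, the counts are raw reads per gene in whole numbers. The deposited FPKM equal these counts divided by a gene length and the library total: for all 24734 genes with counts in several libraries the implied length was the same in each, within 1 part in 1000.

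Counts were tested in R 4.3.3 with edgeR 4.0.16 (filterByExpr with minimum count 10 and minimum total 15, TMM scaling, quasi-likelihood F test, Benjamini-Hochberg adjustment over all tested genes, threshold 0.05). Standard errors and 95% intervals were derived from that fit and are approximate. The SE is the absolute log2 fold change over the square root of the F statistic, and the interval uses the t distribution. DESeq2 1.42.0 and limma 3.58.1 (voom, and a trend fit on log2 of FPKM plus 1 or 0.1) were alternatives. Fits were tested on simulated data for the sign and size of set fold changes, and no result given here rests on that test. Averaged over genes, with libraries scaled by their totals, the squared difference between libraries of a group was 11.2 to 14.9 times that of counting. None is therefore another library sequenced again. The average cannot show whether libraries came from separate RNA or separate tanks. This average is not a value for single members. The p-values of the fits compare the group difference with the spread between pools, which was estimated with information shared across genes. The members, gene lists and marker lists were chosen with earlier results of these data known. Named genes are all members, the gene with the lowest p in each list, and the 3 nearest in pattern to the member with the lowest p; pemt, phospho1, gpcpd1 and triap1 were added after their values were seen.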

Additional observations from a re-analysis of the deposited data

How the results depend on the processing

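Under all 16 alternatives 0 members and 0 other pathway genes were called. Over all genes edgeR called 14, DESeq2 449, edgeR without a filter 57, with library totals alone 5 and with the replicate number as a block 2, and the FPKM fits 0 (3639, 3614 and 3881 genes at an unadjusted p under 0.05). Leaving out SP_L replicate 1, 2 or 3 gave 0, 6 and 2 calls over all genes, and leaving out SP_H replicate 1, 2 or 3 gave 22, 1 and 0. With library totals alone the median over all genes was -0.13 on the log2 scale. Under that scaling the log2 fold change was -0.086 for chka, -0.105 for etnk1, -0.023 for selenoi and -0.011 for pisd, opposite in sign to the reported values, but 0.042, 0.023, 0.104 and 0.117 relative to that median. The FPKM fits, which use the same totals, gave -0.078 for chka, -0.103 for etnk1, -0.018 for selenoi and -0.0088 for pisd with a pseudocount of 1, with and without a filter, and -0.085, -0.103, -0.020 and -0.013 with a pseudocount of 0.1. Leaving out 1 library moved chka between -0.018 and 0.091, etnk1 between -0.033 and 0.067, ptdss2 between -0.109 and 0.016, cept1b between -0.214 and 0.063, and cmpk between -0.139 and 0.048. The log2 difference in the chpt1 to cept1b ratio, a repeat chosen after seeing the data, lay between 0.23 and 0.49. With 1 library left out, other values also moved by over 1.5 times. Without SP_H replicate 1 selenoi was 0.041. Without SP_H replicate 2 pisd was 0.047 and etnk2 -0.066. Without SP_L replicate 1 pisd was 0.192 and tamm41 0.234. Without SP_L replicate 2 gdpd1 was 0.150 and lclat1 0.128. Without SP_H replicate 3 stard7 was 0.119. Some moved farther under other scalings. The FPKM fit with a pseudocount of 1 gave 0.060 for lclat1, 0.056 for stard7, 0.098 for gdpd1 and 0.184 for tamm41. Library totals alone gave -0.246 for etnk2. Of 272 repeats for single genes 0 crossed the threshold and 24 turned in sign: 8 with 1 library left out and 16 under library totals or FPKM, which shift all genes together; 3 of those 16 also turned relative to the median of all genes.

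With the replicate number as a block, edgeR called 0 members and 0 other pathway genes. The labels do not say that the numbers mark a shared tank or day, and the correlations of same-numbered libraries' deviations from their group means were -0.07, -0.09 and -0.10; no library correlated best with its own number. Depth limits the genes with few reads most: the interval of flvcr1 reached a log2 fold change of 1.69.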

Other observations

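Outside the members, the most abundant genes of phospholipid metabolism per gene length, chosen after their values were seen, were gpcpd1, which encodes a phosphodiesterase that releases choline from glycerophosphocholine (50.1 ± 5.63 FPKM in SP_L and 54.7 ± 3.29 FPKM in SP_H; SD, n = 3 each), and triap1, a partner in lipid transfer within mitochondria (46.6 ± 3.65 FPKM in SP_L and 45.9 ± 1.51 FPKM in SP_H). Both were below etnk1 in every library.

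phospho1 encodes a phosphatase of phosphocholine and phosphoethanolamine, the products of the kinases, and is known for its part in bone mineralization. It had 56.7, 55.9 and 65.1 CPM in SP_L, against 59.0, 64.9 and 88.4 CPM in SP_H. SP_H replicate 3 stood above all other libraries. The log2 fold change was -0.26 ± 0.15 (edgeR adjusted p = 0.517), and -0.06 without SP_H replicate 3 (edgeR adjusted p = 0.880). The summed level of bone matrix markers was also highest in SP_H replicate 3 (13924 CPM), with 13066 and 13202 CPM in SP_H replicates 1 and 2. SP_L replicate 3 had more phospho1 than SP_H replicate 1 (65.1 against 59.0 CPM) but a lower marker sum (10577 CPM). Most of the marker sum came from type I collagen genes. The part of bone content in the phospho1 values was not tested.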
